A study of Mus musculus with 9 samples.

Results

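Netrins are secreted, laminin-related guidance cues, and their receptors are single-pass membrane proteins that guide axons, endothelial cells and epithelium. The 10 genes described here are 4 netrin ligands (*Ntn1*, *Ntn3*, *Ntn4*, *Ntn5*) and 6 receptors (*Dcc*, *Neo1*, *Unc5a*, *Unc5b*, *Unc5c*, *Dscam*). They were chosen by gene symbol among the 24138 loci of the deposited table, and all 10 were found there. DCC and its paralogue neogenin, encoded by *Neo1*, mediate attraction to netrin-1, UNC5 receptors mediate repulsion alone or together with DCC, and DSCAM is a further netrin-1 receptor. In the developing kidney *Ntn1* is made by stromal progenitors, and UNC5B is known as an endothelial netrin receptor.

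Whole mouse kidneys at E15.5 were profiled by RNA-seq in 3 genotypes, with 3 kidneys and 3 libraries each, numbered 1 to 3 within a genotype. The kidneys came from 3 separate crosses, and whether libraries with the same number share a cross is not stated. *Foxd1GC/+;Ntn1fl/fl* kidneys (MUT) carried 2 floxed *Ntn1* alleles and the *Foxd1* GFP-Cre knock-in, *Foxd1GC/+;Ntn1fl/+* kidneys (HET) carried 1 floxed *Ntn1* allele and the same knock-in, and *Ntn1fl/fl* kidneys (WT) carried 2 floxed *Ntn1* alleles and no Cre. Every kidney therefore had at least 1 floxed *Ntn1* allele, and HET and MUT also lacked 1 intact *Foxd1* allele. The Cre is driven by *Foxd1*, so deletion is limited to stromal progenitors and their descendants, while the RNA came from all kidney cells. These include the proximal tubule, where weaker *Ntn1* RNA is reported. In such bulk samples, fewer cells of a type and less RNA per cell cannot be told apart.

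Values are FPKM, fragments per kilobase of transcript scaled to library size, which permit levels to be compared between genes. The number of reads is unknown. A rough relative depth from the spacing of the lowest FPKM, with WT-1 set to 1, was lowest in WT-2 (0.572) and MUT-3 (0.613) and highest in MUT-1 (1.27). Markers of the expected kidney cells were present, among them *Six2* of nephron progenitors (57.8 to 107 FPKM), *Calb1* of ureteric epithelium (67.9 to 106 FPKM) and *Tcf21* of stroma (137 to 185 FPKM). HET-2 stood apart from the other 8 libraries. All 5 liver markers were found in the table and none was at 0, and their summed level was 610 FPKM in HET-2. In the other libraries it was 35.0, 37.5 and 48.9 FPKM in WT, 36.2 and 32.5 FPKM in HET-1 and HET-3, and 26.0, 50.3 and 31.0 FPKM in MUT, with *Afp* the most abundant over the series. *Alb* alone was 244 FPKM in HET-2 and at most 4.77 FPKM elsewhere. The summed level of 7 nerve and neural crest markers was 24.9 FPKM in HET-2, against 9.19 to 14.8 FPKM in the others, and *Stmn2* was the most abundant of them. HET-2 was also the highest library for the summed erythroid markers (1534 FPKM, against 787 to 936 in the others). The same held for smooth muscle (172 against 95.3 to 134 FPKM) and adrenal cortex markers (2.01 against 0.606 to 0.894 FPKM). For smooth muscle this was not limited to HET-2. *Actg2* had 9.59, 16.3 and 8.24 FPKM in HET and at most 5.55 FPKM in WT and MUT. *Myh11* and *Cnn1* were also higher in every HET library than in any WT or MUT library, while *Acta2* and *Tagln* overlapped. For the tested netrin genes, log2 fold changes without HET-2 are given beside those that use it, and for the other genes they are not given.

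The levels fell into 3 ranges. *Neo1* was the most abundant, with 24.0 to 35.9 FPKM over the 9 libraries (median 29.0), followed by *Unc5c* with 17.6 to 27.1 (median 21.5), *Ntn1* with 10.8 to 28.9 (median 16.5) and *Unc5b* with 12.6 to 21.7 (median 14.9). Each of these genes overlapped its neighbour in the order. That order is by the median over all 9 libraries, and the place of *Ntn1* in it depended on the genotype. By genotype mean, *Ntn1* lay above *Unc5c* in WT (24.3 against 22.6 FPKM). It lay below *Unc5b* in HET (13.6 against 14.0 FPKM) and in MUT (12.8 against 18.4 FPKM). The locus that holds *Ntn3* had 6.62 to 10.4 FPKM (median 8.004), below every *Unc5b* value. *Ntn4* with 2.09 to 4.76 FPKM (median 2.48) and *Unc5a* with 1.65 to 2.58 (median 1.91) formed the middle range and overlapped each other. *Dcc* had 0.245 to 0.409 FPKM (median 0.327), *Ntn5* 0.0185 to 0.130 (median 0.0875) and *Dscam* 0.0285 to 0.0948 (median 0.0405). *Ntn5* and *Dscam* overlapped, and both lay below every *Dcc* value. Of the 6 receptors, *Neo1*, *Unc5c* and *Unc5b* were thus the most abundant and *Dcc* and *Dscam* the least. *Mcam*, outside these 6 and described with the related genes, had a higher median of 38.3 FPKM.

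**Figure D1:**
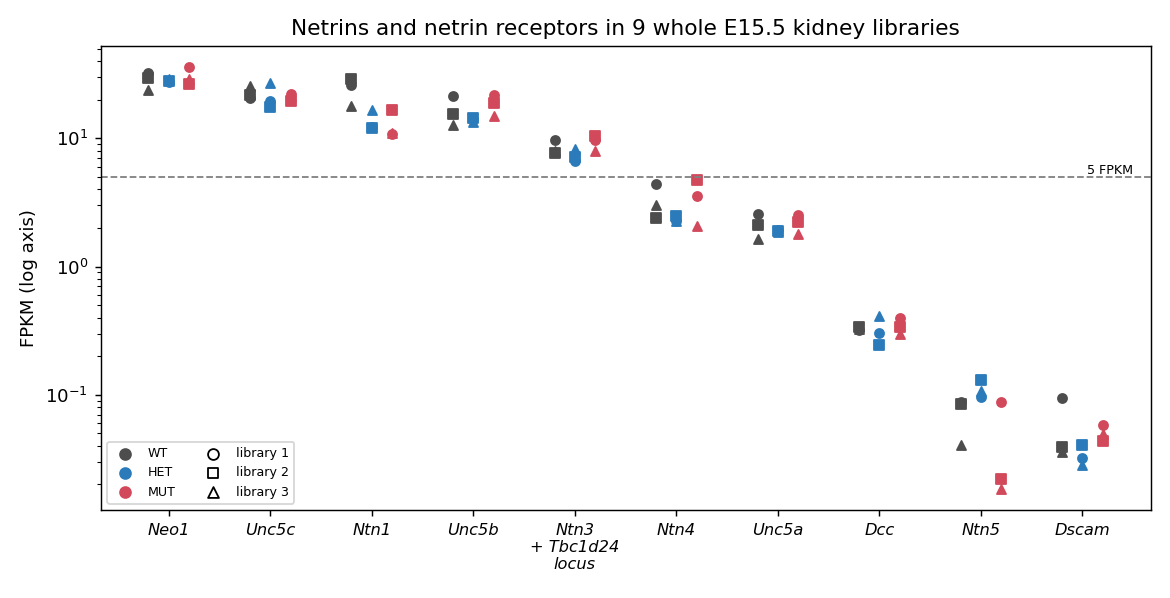
FPKM of each netrin and netrin receptor (log axis) in the 9 libraries, ordered by mean level. Colours mark the genotype, symbols the library number, and the dashed line the minimum of 5 FPKM for the test across genes. *Neo1*, *Unc5c*, *Ntn1*, *Unc5b* and the *Ntn3* locus lie above it, and *Dcc*, *Ntn5* and *Dscam* lie under 1 FPKM.

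A locus entered the test across genes if its mean was at least 5 FPKM in any genotype, which left 10164 loci. Of the 10 genes, 5 passed (*Ntn1*, the *Ntn3* locus, *Neo1*, *Unc5b* and *Unc5c*). Differences are given as log2 fold changes of FPKM + 1, a scale that understates the change of low genes, with adjusted p-values from limma with Benjamini-Hochberg adjustment over all 10164 loci. In none of the 4 comparisons did limma call a gene at an adjusted p under 0.05, so the share of loci called was 0.00% in either direction and 0 of the 5 tested genes were called. At an unadjusted p under 0.05 there were 84 loci between HET and WT, 88 between MUT and WT, 402 between MUT and HET, and 80 between HET and MUT together and WT. *Fxyd3*, a regulator of the sodium pump, had the smallest adjusted p in the last comparison (0.0805).

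*Ntn1*, the targeted gene, was lower in both Cre-carrying genotypes. It lies on chromosome 11 of mm10, on the reverse strand, and the deposited locus runs from 68209364 to 68386826. Its FPKM was 26.1, 28.9 and 17.8 in WT, 12.3, 12.0 and 16.5 in HET, and 10.8, 16.5 and 11.0 in MUT. All 6 Cre-carrying libraries lay below all 3 WT libraries, and HET and MUT overlapped. The mean was 24.3±5.75 FPKM in WT, 13.6±2.53 in HET and 12.8±3.22 in MUT (mean±s.d., n=3 each), so that HET had 56.1% and MUT 52.6% of the WT mean. The HET and WT groups did not overlap for 1.06% of tested loci in the lower direction and 2.13% in the higher. For MUT against WT these shares were 1.35% and 1.33%.

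For HET against WT the log2 fold change of *Ntn1* was -0.78 (s.e. 0.20, 95% interval -1.21 to -0.34, unadjusted p = 0.00236, adjusted p = 0.998, limma), and the gene ranked 6 of 10164 by p. For MUT against WT it was -0.87 (s.e. 0.20, 95% interval -1.31 to -0.44, unadjusted p = 0.00102, adjusted p = 1.00, limma), with rank 10. With HET and MUT pooled against WT it was -0.82 (s.e. 0.17, 95% interval -1.20 to -0.45, unadjusted p = 0.000525, adjusted p = 0.978, limma), and only 0.108% of loci were lower and 0.256% higher without overlap in that comparison. An exact two-sided permutation test of the FPKM gave p = 0.1 for each genotype against WT, the smallest that 3 libraries against 3 allow, and p = 0.0238 for both together, the smallest that 3 against 6 allow. For *Ntn1* as a single gene, the limma intervals against WT thus excluded 0. The permutation p was under 0.05 only with HET and MUT pooled. The lowest WT library (17.8 FPKM) lay close to HET-3 and MUT-2 (16.5 FPKM each). The difference did not pass the adjustment over all loci. Without HET-2 the log2 fold change was -0.70 for HET against WT and -0.79 for both together.

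Between MUT and HET, which differ by 1 floxed allele, *Ntn1* differed by a log2 fold change of -0.10 (95% interval -0.53 to 0.34, adjusted p = 0.923, limma; exact permutation p = 0.5). The interval allows a MUT value of FPKM + 1 from 0.691 to 1.27 times the HET value. The log2 fold change was -0.17 without HET-2. The sign turned to 0.04 without HET-3 and to 0.00 without MUT-1. The FPKM is 1 value for the deposited locus, which ends at 68386826, while the GENCODE gene runs on to 68400823 at its 5′ end. Reads from the floxed exons alone were not analysed here. Around the nephron progenitors of MUT kidneys, the authors found little or no Ntn1 protein, which the RNA values do not measure.

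*Foxd1*, which encodes the stromal transcription factor whose locus carries the Cre, was also lower in carriers. It was 33.7, 33.4 and 25.8 FPKM in WT, 21.7, 20.2 and 21.5 in HET, and 24.8, 22.5 and 24.3 in MUT, and no carrier overlapped WT. The log2 fold change was -0.52 for HET (s.e. 0.11, adjusted p = 0.998) and -0.35 for MUT (s.e. 0.11, adjusted p = 1.00) against WT, both from limma. The summed level of the 6 stromal markers, all found and led by *Tcf21*, was 288, 285 and 280 FPKM in WT, 299, 302 and 281 in HET, and 274, 307 and 292 in MUT. That sum, which includes *Foxd1*, overlapped between genotypes. Over the 9 libraries *Foxd1* was the tested locus most like *Ntn1* (Pearson r = 0.80), followed by *Dusp3*, which encodes a dual-specificity phosphatase (r = 0.78), and *Nell2*, which encodes a secreted ligand (r = 0.76). These correlations are descriptions over 9 libraries that include the genotype difference.

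None of the other ligands separated from WT in the lower direction. *Ntn3* lies on chromosome 17, and in the deposited table it is joined with *Tbc1d24*, which encodes a TBC domain protein of vesicle traffic, in 1 locus from 24175431 to 24209387. In the GENCODE annotation of GRCm38 the 2 genes overlap over 1715 bases of the same strand, from 24203848 to 24205562, so the FPKM cannot be split between them. It was 9.74, 7.64 and 7.91 in WT, 6.62, 7.19 and 8.23 in HET, and 9.70, 10.4 and 8.004 in MUT, with overlap between all genotypes. MUT exceeded HET by a log2 fold change of 0.31 (s.e. 0.13, 95% interval 0.02 to 0.60, unadjusted p = 0.0397, adjusted p = 0.835, limma), and 0.30 without HET-2.

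*Ntn4*, a basement membrane netrin that binds laminin, had 4.41, 2.37 and 3.03 FPKM in WT, 2.27, 2.48 and 2.25 in HET, and 3.53, 4.76 and 2.09 in MUT. The HET libraries were close together, with a coefficient of variation of 5.45%, against 31.7% in WT and 38.7% in MUT, whose values enclosed them or reached down to them. MUT had 1.48 times the HET mean (exact permutation p = 0.4). *Ntn5* was near the bottom of the scale, with 0.0875, 0.0851 and 0.0404 FPKM in WT, 0.0964, 0.130 and 0.108 in HET, and 0.0875, 0.0222 and 0.0185 in MUT. Its HET libraries lay above all WT and all MUT libraries. The exact permutation test gave p = 0.1 for each, at levels of at most 0.130 FPKM that rest on an unknown number of reads. With no minimum, limma gave *Ntn5* an adjusted p of 1.00 between HET and WT and 0.859 between MUT and HET.

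**Figure D2:**
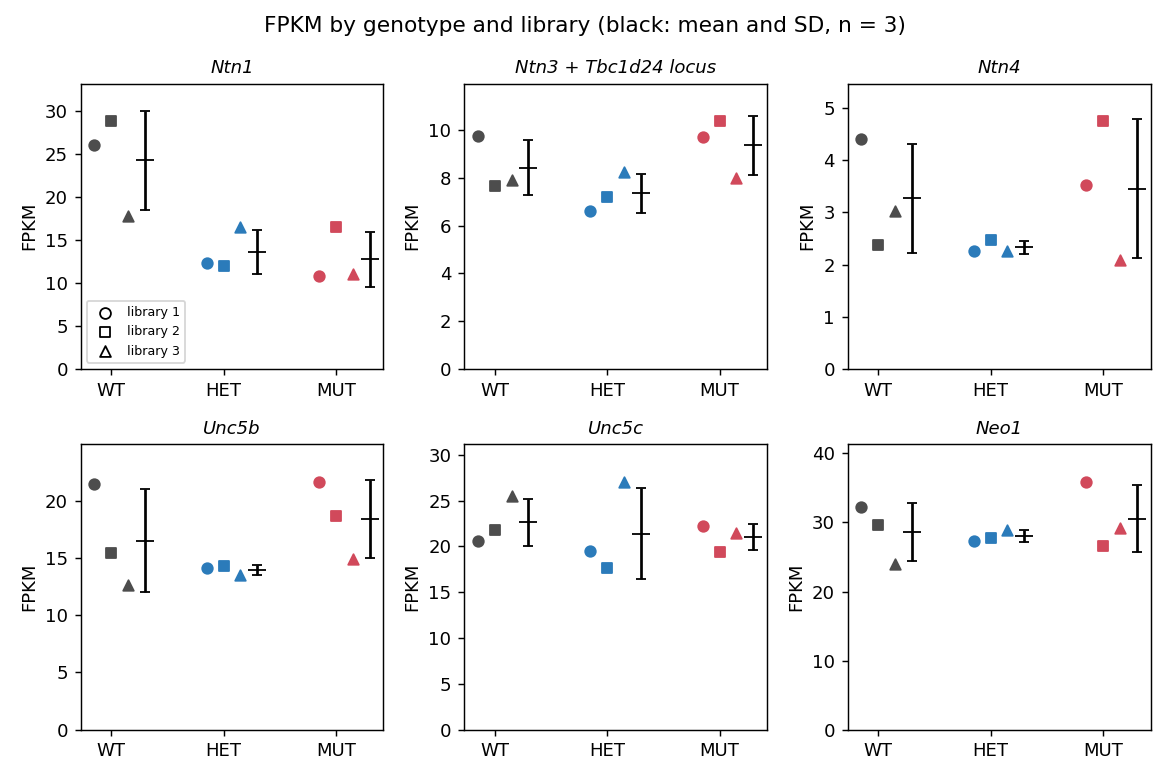
FPKM of 6 genes by genotype, with 1 point per library (symbols mark the library number) and the mean and s.d. of 3 libraries in black; each vertical axis starts at 0. *Ntn1* in all 6 HET and MUT libraries lies at or under 16.5 FPKM, below the lowest WT library (17.8), while the other genes overlap between WT and both carrier genotypes.

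Among the repulsive receptors, *Unc5b* was the only tested member whose MUT and HET libraries did not overlap. It lies on chromosome 10 from 60762595 to 60831581. It had 21.5, 15.4 and 12.6 FPKM in WT, 14.1, 14.3 and 13.5 in HET, and 21.7, 18.7 and 14.9 in MUT. The lowest MUT library lay just above the highest HET library, and the WT libraries spanned nearly the whole range of both. MUT exceeded HET by a log2 fold change of 0.36 (s.e. 0.17, 95% interval -0.02 to 0.74, adjusted p = 0.835, limma; exact permutation p = 0.1), and by 0.38 without HET-2. Between MUT and HET, 5.17% of tested loci were higher and 4.47% lower without overlap, and 1 of 5 tested members was higher.

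Markers of other cell types were high in some of the same libraries as *Unc5b*. The summed level of 5 of 5 podocyte markers, led by *Podxl* and with none at 0, was 145, 84.5 and 100 FPKM in WT, 85.7, 101 and 68.4 in HET, and 117, 135 and 68.2 in MUT. WT-1, MUT-1 and MUT-2 had the highest 3 values of both, while WT-3 had the lowest *Unc5b* value and MUT-3 the lowest podocyte sum. The summed level of 6 endothelial markers, led by *Emcn*, was 219, 222 and 212 FPKM in WT, 202, 205 and 202 in HET, and 221, 205 and 205 in MUT. All 6 were found and none was at 0. Among them, *Cdh5*, which encodes VE-cadherin, had 45.6, 38.5 and 33.5 FPKM in WT, 33.0, 34.4 and 36.3 in HET, and 48.7, 40.5 and 36.1 in MUT, with the same 3 highest libraries as *Unc5b*, and so did *Tie1*. The other 4 did not share them: *Pecam1* and *Tek* were highest in WT-3 and HET-3, *Kdr* was 17.7 FPKM in MUT-2, and *Emcn* was lowest in WT-1 and MUT-1. The 5 ureteric markers, led by *Calb1*, summed to 133, 151 and 137 FPKM in WT and 154, 136 and 154 in HET. In MUT their sum was 161, 137 and 175 FPKM. Among them, *Wnt9b* was highest in MUT-1 (7.55 FPKM), WT-1 (7.26 FPKM) and MUT-2 (6.84 FPKM), the same 3 libraries as *Unc5b*. The other ureteric markers did not share them: *Calb1*, *Wnt11* and *Ret* were highest in MUT-3, and *Gata3* in MUT-1, WT-1 and MUT-3. The part of podocytes, of endothelium and of ureteric epithelium in the *Unc5b* difference was not tested. The tested locus most like *Unc5b* over the 9 libraries was *Plxnd1*, an endothelial semaphorin receptor (r = 0.99), and 434 of 9966 loci had r of at least 0.9 with *Unc5b*. For *Ntn1* there were 0 such loci.

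*Unc5c*, known in kidney nephron progenitors, had 20.5, 21.8 and 25.5 FPKM in WT, 19.5, 17.6 and 27.1 in HET, and 22.2, 19.4 and 21.5 in MUT. The genotypes overlapped fully, and the log2 fold change was -0.09 for HET (95% interval -0.42 to 0.23, adjusted p = 0.998) and -0.10 for MUT (95% interval -0.42 to 0.23, adjusted p = 1.00) against WT, both from limma. Without HET-2 the HET value was 0.03. Between MUT and HET it was 0.00 (95% interval -0.33 to 0.32, adjusted p = 0.997, limma), and -0.13 without HET-2. *Unc5a*, a mainly neuronal UNC5 receptor, had 2.58, 2.10 and 1.65 FPKM in WT, 1.91, 1.89 and 1.86 in HET, and 2.51, 2.22 and 1.78 in MUT, and its HET libraries lay within the range of the other genotypes.

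*Neo1*, which encodes neogenin, a receptor shared by netrins and repulsive guidance molecules, had 32.2, 29.6 and 24.0 FPKM in WT, 27.4, 27.7 and 29.0 in HET, and 35.9, 26.6 and 29.1 in MUT. The log2 fold change was -0.02 for HET (95% interval -0.32 to 0.28, adjusted p = 0.998) and 0.09 for MUT (95% interval -0.20 to 0.39, adjusted p = 1.00) against WT, both from limma. Without HET-2 the HET value was -0.01. *Dcc* had 0.320, 0.337 and 0.327 FPKM in WT, 0.303, 0.245 and 0.409 in HET, and 0.399, 0.336 and 0.295 in MUT, with overlap throughout. *Dscam* had 0.0948, 0.0389 and 0.0356 FPKM in WT, 0.0322, 0.0405 and 0.0285 in HET, and 0.0583, 0.0434 and 0.0495 in MUT. Its MUT libraries lay above its HET libraries (exact permutation p = 0.1), and WT-1 was above all others. These levels are near the bottom of the scale, and with no minimum limma gave an adjusted p of 0.860 between MUT and HET. Shares of loci without overlap were computed only for tested loci, so none is given for *Dscam* or *Ntn5*.

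**Figure D3:**
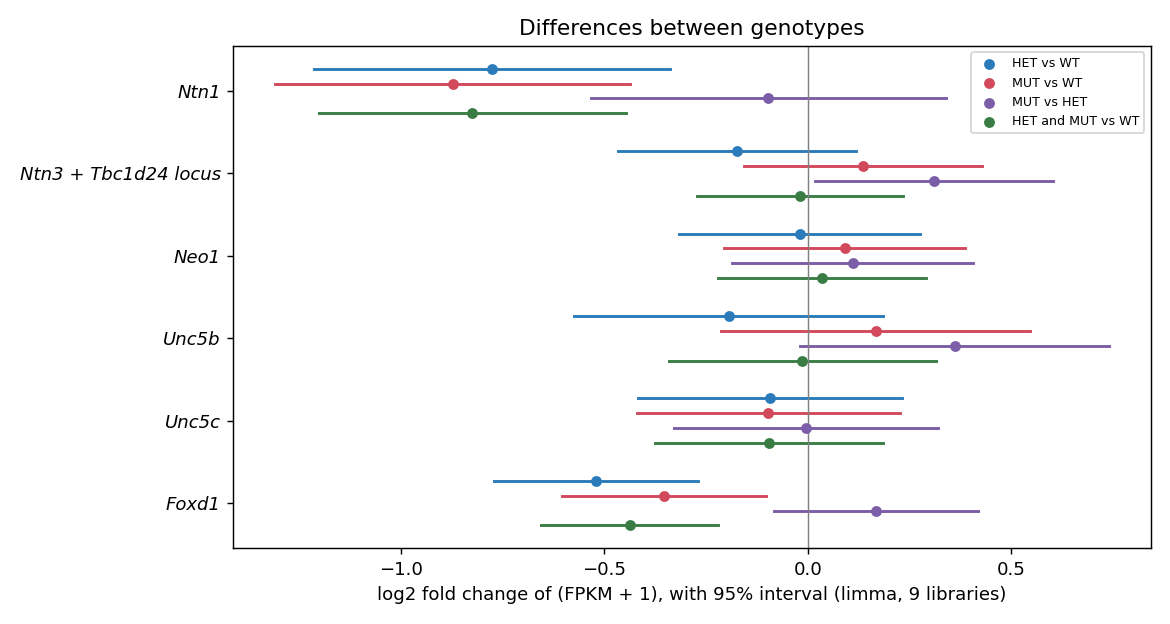
Log2 fold change of FPKM + 1 (points) with its 95% interval (lines) in 4 comparisons, for the 5 tested netrin genes and *Foxd1*, from limma over 9 libraries. The intervals of *Ntn1* and *Foxd1* against WT lie below 0, the interval of the *Ntn3* locus between MUT and HET lies just above 0, and all other intervals include 0.

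Several of the genes were high or low in the same libraries. Among the 5 tested genes, WT-1 was the highest WT library for 3 and MUT-1 the highest MUT library for 3, against 31.8% and 34.8% of all tested loci. HET-3 was the highest HET library for 4 of the 5, against 37.8% of tested loci. With the 5 genes under the minimum included, WT-1 and MUT-1 were each the highest of their genotype for 7 of 10 and HET-3 for 5 of 10. The coefficient of variation was lowest in HET for 7 of the 10 genes and for 4 of the 5 tested, against 58.0% of the 10138 tested loci with a mean above 0 in each genotype. It was 1.32% in HET against 22.1% in WT for *Unc5a*, and 3.13% against 27.3% for *Unc5b*. The order was the opposite for *Unc5c*, with 23.3% in HET against 11.4% in WT, and for *Dcc*, with 26.0% against 2.64%. Among the tested genes, *Unc5b* was most alike over the 9 libraries with the *Ntn3* locus (r = 0.79) and *Neo1* (r = 0.75), and *Ntn1* had r between -0.05 and 0.20 with the others. These are descriptions over 9 libraries and share their depth and composition.

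**Figure D4:**
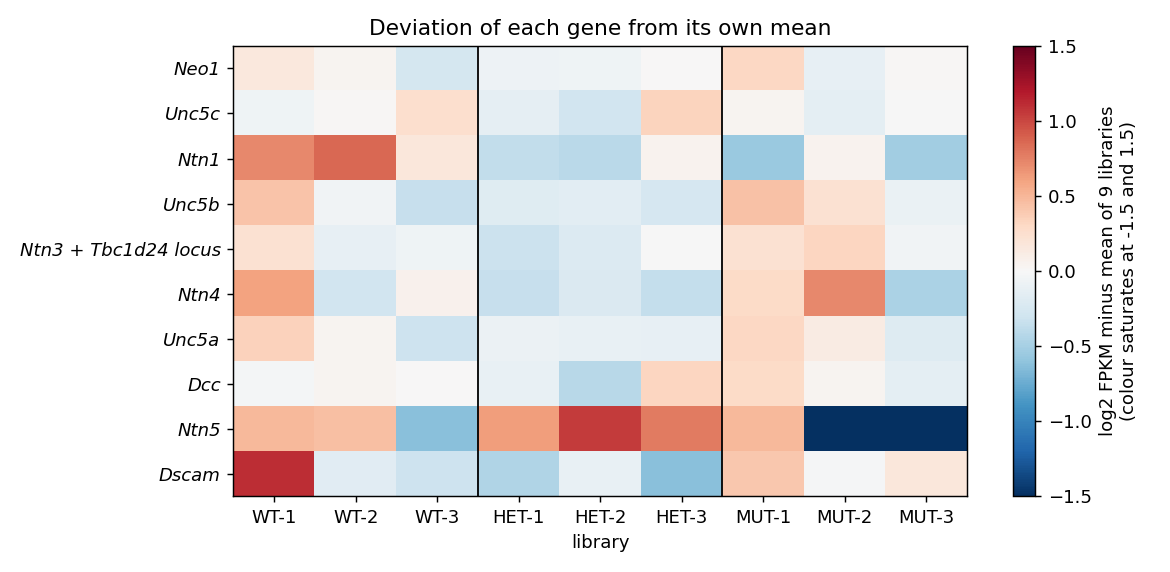
Deviation of each gene's log2 FPKM from its own mean over 9 libraries (red higher, blue lower), with genes as rows in order of level and libraries as columns grouped by genotype. *Ntn1* is red in WT, WT-1 and MUT-1 are red for most genes, and the strong colours of *Ntn5* and *Dscam* belong to levels at or under 0.130 FPKM.

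The promoter of *Unc5b* is shown because it was the tested member whose MUT and HET libraries did not overlap. Of the 10 genes, 8 were matched in the table of RefSeq (GRCm38.p6) starts used here, and *Ntn1* and *Dcc* were not. The sequence is the 250 bases before the RefSeq start, chr10:60831582-60831831 on the reverse strand, 5′ to 3′, and it lies outside the gene in GENCODE as well. Capitals mark the GC box GGGCGG or its reverse complement CCGCCC, a binding motif of SP family factors.
Unc5b: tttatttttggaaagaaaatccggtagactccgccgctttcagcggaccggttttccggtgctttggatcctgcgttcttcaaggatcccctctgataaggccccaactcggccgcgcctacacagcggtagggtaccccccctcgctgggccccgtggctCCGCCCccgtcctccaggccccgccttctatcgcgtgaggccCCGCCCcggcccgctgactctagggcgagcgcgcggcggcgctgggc

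The GC box was found 2 times before *Unc5b*, and in 32.7% of all 32851 windows of this length. In the windows of the same length before the RefSeq starts of other members it was found 5 times for *Unc5a*, 4 times for *Ntn4*, 2 of them overlapping, and 1 time each for *Neo1* and *Ntn3*. GENCODE places the starts of *Ntn4* (93640681) and *Unc5c* (141465216) upstream of their whole windows, and those of *Ntn3* (24209531) and *Dscam* (97170752) within their windows, so for these 4 genes the window is partly or wholly inside the GENCODE gene. The letters TATAAA or their reverse complement TTTATA were in none of the 8 windows, these 4 included, and in 12.4% of all windows. CCAAT or its reverse complement ATTGG was found before *Neo1* and in 33.9% of all windows. The GC content was 66.8% before *Unc5b*, against a median of 52.4%. These matches are descriptions of the letters and do not mark occupied sites.

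Of 5 related family genes, 2 were tested and 0 were called in any comparison. *Mcam*, which encodes a vascular adhesion molecule that also binds netrin-1, had 41.3, 38.6 and 38.3 FPKM in WT, 36.0, 41.2 and 37.0 in HET, and 38.5, 32.4 and 33.3 in MUT. *Ntng2*, a membrane-anchored netrin that binds NGL proteins and not DCC or UNC5, is joined with *6530402F18Rik* in 1 locus. That locus had 9.23, 5.15 and 5.19 FPKM in WT, 4.36, 4.85 and 3.40 in HET, and 7.46, 7.09 and 4.15 in MUT, and HET lay below WT without overlap (log2 fold change -0.50, s.e. 0.24, adjusted p = 0.998, limma). *Ntng1* (0.426 to 0.933 FPKM), *Unc5d* (0.0608 to 0.136 FPKM) and *Dscaml1* (0.0321 to 0.103 FPKM) were not tested.

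Extracellular partners of netrin receptors, such as repulsive guidance molecules, FLRT proteins, integrins and Slit/Robo, were present but not called. Of 20 listed, 11 were tested, and 0 were called in any comparison. Between HET and WT, 2 were above 0 and 9 below, with a median log2 fold change of -0.13, against 0.01 over all tested loci. Between MUT and WT, 8 were above 0 and 3 below (median 0.07, against 0.00), and between MUT and HET, 9 were above and 2 below (median 0.17, against -0.01). HET is shared by the first and the last of these, so their opposite signs do not add independent evidence. Over all tested loci, 52.2% were above 0 between HET and WT, 48.6% between MUT and WT, and 46.0% between MUT and HET. *Rgma*, which encodes a neogenin ligand and was singled out after its values were seen, had 10.9, 9.59 and 6.73 FPKM in WT, 7.36, 6.40 and 8.49 in HET, and 10.6, 9.46 and 9.97 in MUT. MUT exceeded HET without overlap (log2 fold change 0.39, s.e. 0.16, unadjusted p = 0.0288, adjusted p = 0.835, limma), as it did for *Robo1*, a Slit receptor (0.26, s.e. 0.19, adjusted p = 0.835, limma). These were 2 of the 11 tested partners, beside 5.17% of all tested loci. Of the untested partners, *Hfe2*, which encodes the neogenin ligand hemojuvelin, was 0.139, 0.0529 and 0.122 FPKM in WT, 0.166, 0.320 and 1.20 in HET, and 0.284, 0.146 and 0.176 in MUT, all carriers lying above WT. *Lrrc4c*, which encodes the netrin-G1 ligand, was lower in MUT than in WT without overlap (mean 0.208 against 0.257 FPKM). No share of untested loci without overlap was computed to set beside *Hfe2* or *Lrrc4c*.

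Of 37 intracellular effectors, 30 were tested and 0 were called in any comparison. They include kinases of the focal adhesion and SRC families, adaptors and actin-binding proteins. Between HET and WT, 10 were above 0 and 20 below (median -0.03), between MUT and WT 22 above and 8 below (median 0.05), and between MUT and HET 24 above and 6 below (median 0.10). The shares of all tested loci above 0, in the same order, were 52.2%, 48.6% and 46.0%. MUT and HET did not overlap for 5 of the 30, all higher in MUT, beside the 5.17% of tested loci given above. These 5, named after their values were seen, were the kinase *Src*, the Rac exchange factor *Dock1*, the actin regulators *Vasp* and *Evl*, and *Wasl*, which encodes N-WASP. *Wasl* had 21.6, 20.9 and 21.8 FPKM in HET and 30.1, 27.2 and 21.9 in MUT, with a log2 fold change of 0.28 (s.e. 0.14, adjusted p = 0.835, limma), and the 5 genes ranged from 0.22 to 0.32. In WT it had 29.1, 20.3 and 22.5 FPKM, overlapping both.

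**Figure D5:**
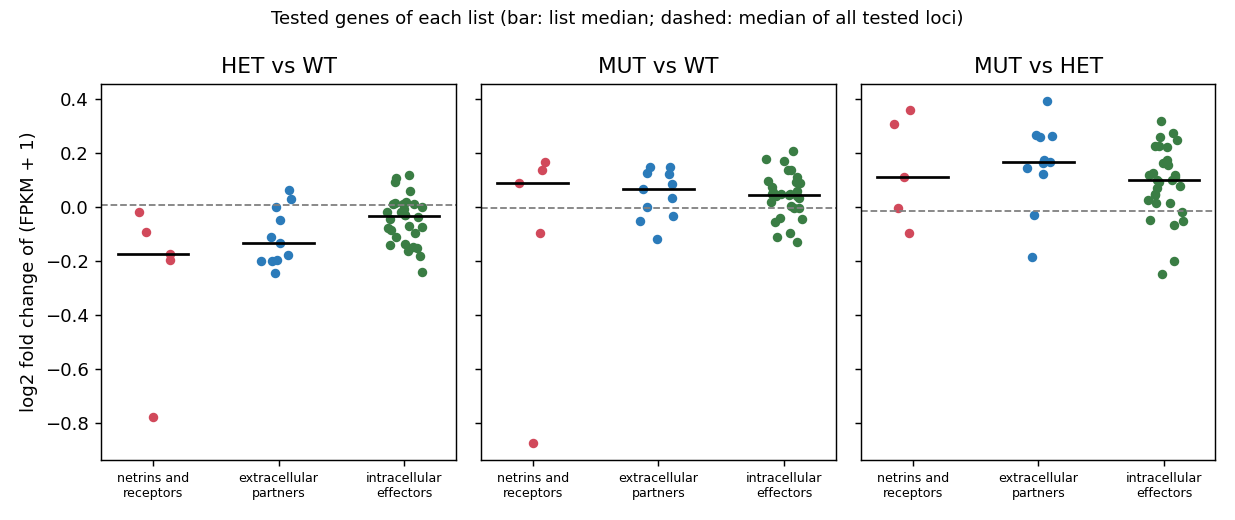
Log2 fold change of FPKM + 1 for the tested netrin genes, extracellular partners and intracellular effectors (1 point per gene, spread sideways for legibility) in 3 comparisons. Bars are list medians and dashed lines the median of all tested loci; the single low point in the first and second panels is *Ntn1*, at -0.78 and -0.87.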

How the data were processed

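RNA-seq of 9 whole kidney libraries was analysed from 1 deposited table. The deposited FPKM are CuffDiff output, which the authors made from STAR alignments after transcript assembly (cufflinks) and merging (cuffmerge). The submitters' processing notes name mm10, while versions and annotation are not given in the sources used here. Stranded mRNA libraries were used. Of 24138 loci, 355 carry several gene names.

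From these FPKM, log2(FPKM + 1) of the 9 libraries was fitted with limma 3.58.1 in R 4.3.3 (lmFit, eBayes with a trend, genotype only). Loci were tested where any genotype averaged 5 FPKM or more, two-sided, with Benjamini-Hochberg adjustment and a threshold of 0.05. Kidneys are separate biological samples, and their number limits the precision. Single genes were compared by exact permutation tests. Of these steps, only the limma fit was tested on simulated data, for MUT against WT.

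The members and gene lists were chosen with earlier results of these data known. All members, related genes and the Cre locus are named, and pathway genes where WT did not overlap HET or MUT. Tested pathway genes apart between MUT and HET, and single marker genes, were named after their values were seen; untested ones apart between MUT and HET (*Adora2b*, *Prkca*) are not described further. Likeness is Pearson's r of log2(FPKM + 1) over 9 libraries, with the 3 highest loci kept. Alternatives changed the pseudocount, minimum, scaling, fit, replicate block and libraries, and a GC correction was chosen after seeing the data. Gene positions were compared with GENCODE M21 and RefSeq promoters. Python 3.11.15, pandas 2.3.3, numpy 2.4.6 and matplotlib were used for tables and figures.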

Additional observations from a re-analysis of the deposited data

How the results depend on the processing

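The number of netrin genes called stayed at 0 in 20 alternatives of each comparison (pseudocounts 0.1 and 3, other minimums, median-ratio and quantile rescaling, only the genotypes compared, replicate block, no trend, GC correction and each library left out). The *Ntn3* locus had 19 alternatives because a minimum of 10 FPKM removed it. *Ntn1* stayed below WT in all of them, at -0.97 to -0.64 for HET, -1.07 to -0.74 for MUT and -1.02 to -0.69 for both together, with adjusted p-values of at least 0.350. Depth is unknown, so no counting error bounds the genes under 1 FPKM.

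Over all loci, 1 gene was called between HET and MUT together and WT after GC correction, a setting chosen after seeing the data, and 1 between MUT and WT with no minimum. Leaving out 1 library gave 0 to 1 genes for HET against WT, MUT against HET and both together against WT, and 0 to 2 for MUT against WT. The library was WT-2 for HET against WT, MUT-2 for MUT against HET, and either of them for the other comparisons. The cause was not tested.

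Whether a number marks a cross is not stated, and same-numbered libraries did not all deviate together (r for numbers 1, 2 and 3 of -0.19, -0.06 and 0.18 for WT and HET, 0.55, -0.26 and -0.03 for WT and MUT, and -0.31, 0.06 and -0.13 for HET and MUT), so the numbers were not used as pairs, although a shared cross cannot be told from these values. With the replicate block 0 genes were called in any comparison by limma, with 114, 172, 535 and 106 loci at an unadjusted p under 0.05 for HET against WT, MUT against WT, MUT against HET and both together against WT. In this balanced design the block cannot change a fitted log2 fold change, only its error.

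Signs turned for the following values, none of which belongs to a called gene. After GC correction *Neo1* was 0.0234 for HET against WT and *Unc5c* 0.00321 for MUT against HET. *Unc5c* was 0.0145 for MUT against HET after median-ratio rescaling, and the *Ntn3* locus 0.000821 for both together against WT after quantile normalization. With 1 library left out, *Ntn1* ranged from -0.282 to 0.0411 for MUT against HET. *Neo1* ranged from -0.0820 to 0.124 for both together, -0.137 to 0.0688 for HET and -0.0282 to 0.182 for MUT against WT, and -0.00844 to 0.202 for MUT against HET. The *Ntn3* locus ranged from -0.0790 to 0.0782 for both together against WT. *Unc5b* ranged from -0.18 to 0.18 for both together and -0.36 to 0.00 for HET against WT (0.000817 without WT-1). *Unc5c* ranged from -0.267 to 0.0289 for HET against WT and -0.13 to 0.17 for MUT against HET. The causes were not tested.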
